A study of Homo sapiens with 4 samples.

Results

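The alpha1 subunits of voltage-gated calcium channels are the 10 genes CACNA1A to CACNA1I and CACNA1S, and all 10 were found among the 17217 named genes of the arrays. They were taken by name, through the RefSeq accession that each array probe carries. The 10 genes had 14 targets and 42 probes, with 3 probes to a target. CACNA1G had 4 targets and CACNA1A had 2, and the other genes had 1 each. RNA came from 4 untreated cultures of HEK293 cells, a human embryonic kidney line transformed with adenovirus DNA, grown in DMEM with fetal bovine serum, penicillin and streptomycin. The labels give the cell type as normal, although the line is immortalised. All 4 arrays formed 1 group, so no conditions were compared. The question was whether these cells hold message for the pore of any voltage-gated calcium channel.

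Voltage-gated calcium channels let calcium into a cell when its membrane depolarises. The alpha1 subunit is the channel proper, as it holds the voltage sensors and the pore, while alpha2delta and beta subunits bring it to the membrane and tune its gating. High-voltage-activated channels are the L-type (CACNA1S, CACNA1C, CACNA1D, CACNA1F), P/Q-type (CACNA1A), N-type (CACNA1B) and R-type (CACNA1E) channels. The T-type channels (CACNA1G, CACNA1H, CACNA1I) open at lower voltage and work without beta subunits. Such channels are best known from muscle, neurons and endocrine cells, and HEK293 cells are a common host for expressing them from plasmids.

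No alpha1 subunit reached the level that the study's rule takes as significant message. That level, the baseline, was recomputed here as the mean plus 2 SD of 10 matched seminal protein genes on the same array. The study listed 11 such genes. The recomputed baseline stood at 10.10 ± 0.52 log2 units (SD, n = 4 arrays). The distance of a gene is its log2 level less the baseline of the array, and a positive mean distance counted as detection. By this rule 0 of 10 alpha1 subunits were detected, against 52.7% of all named genes. Each of the 10 lay below the baseline on all 4 arrays, which 39.8% of all named genes did. None lay above it on all 4 arrays, which 45.0% of all named genes did. The median distance of the 10 genes was -2.15 log2 units, beside 0.26 for all named genes.

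A moderated one-sided test of the distances with limma, adjusted over all 17217 genes, called 0 of 10 above the baseline and 9 of 10 below it. Of all named genes the test called 45.9% above and 41.0% below. At an unadjusted p under 0.05 the numbers were again 0 above and 9 below, and limma with a robust prior that follows intensity gave 0 and 9 as well. The exception was CACNA1H, which was called in neither direction. The placement of the baseline decided these calls, as given further on, and every gene took the same standard error of 0.351 log2 units in the test. In RNA from a whole culture, a few cells with much message and many cells with little cannot be told apart.

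**Figure D1:**
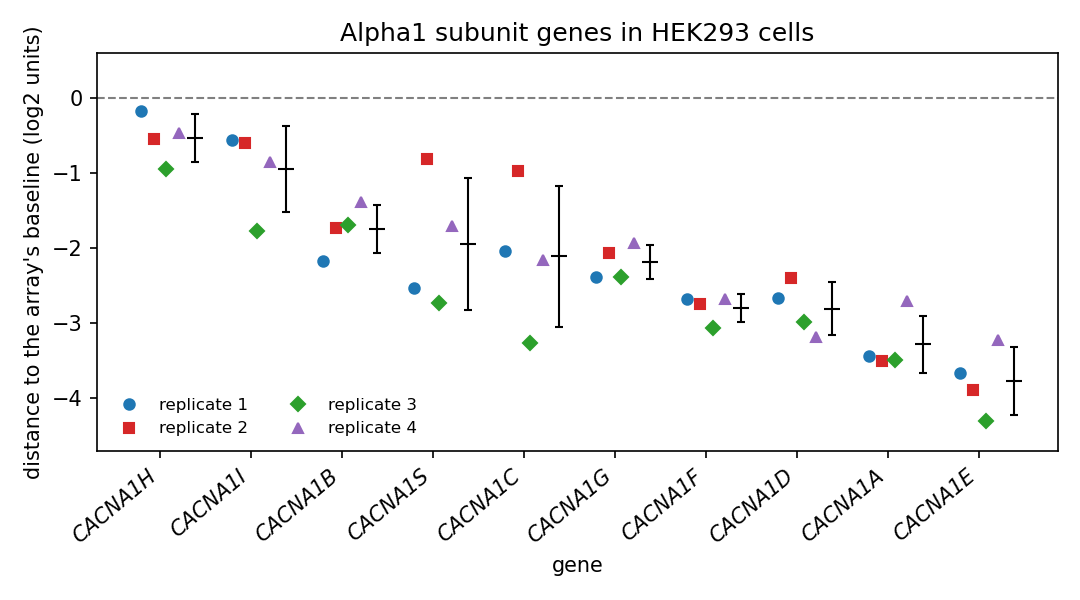
Distance of each alpha1 subunit gene to the baseline of its array, in log2 units, with 1 point for each of the 4 arrays and a bar for the mean ± SD (n = 4). The dashed line at 0 is the baseline. All points lie below it, from -0.17 for CACNA1H on replicate 1 to -4.31 for CACNA1E on replicate 3.

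The T-type genes CACNA1H and CACNA1I lay nearest to the baseline. CACNA1H encodes a T-type channel known from sensory neurons and the adrenal zona glomerulosa. Its log2 levels were 9.30, 9.39, 9.74 and 9.85 on replicates 1 to 4, and its distances were -0.17, -0.54, -0.95 and -0.47. The mean distance was -0.53 ± 0.32 log2 units (SD, n = 4, limma adjusted p = 0.152 for a distance below 0). It was therefore under the baseline on every array, and by more than its own SD. The test did not separate it from the baseline with the standard error of 0.351 that every gene took.

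CACNA1I encodes the T-type channel known mainly from thalamic and other brain neurons. Its log2 levels were 8.92, 9.33, 8.92 and 9.47 on replicates 1 to 4, with distances of -0.55, -0.60, -1.77 and -0.85. The mean distance was -0.95 ± 0.57 (SD, n = 4, limma adjusted p = 0.0092 for a distance below 0). The call rested on replicate 3, since without it the distance was -0.67 with a limma adjusted p of 0.095. Replicate 3 also had the highest baseline, 10.69, and the log2 level of CACNA1I was the same there as on replicate 1.

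Single probes showed where the levels of these 2 genes came from. Of the 42 alpha1 probes, 39 lay below the baseline on all 4 arrays, a share that was not counted for the probes of all named genes. Another 1 exceeded it on all 4, a position that 38.3% of the probes of all named genes held. That probe was the second of CACNA1H in the order of probe names, at 10.45, 10.57, 10.84 and 11.19 log2 units on replicates 1 to 4. The other probes of CACNA1H averaged 7.79 and 8.25. The high probe made up 71.2% to 83.9% of the summed linear signal of the gene.

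CACNA1I had the same form. The last of its probes read 10.36, 10.50, 9.76 and 10.85 log2 units, above the baseline on 3 arrays, while its other probes averaged 6.60 and 7.72. This probe made up 59.7% to 90.7% of the linear signal. The 3 probe means spanned 2.97 log2 units for CACNA1H and 3.77 for CACNA1I. For comparison, the median span over all 19125 named targets was 1.48, with 82.8% of these targets below the span of CACNA1H and 91.0% below that of CACNA1I.

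Both genes therefore owed their place near the baseline to 1 probe in 3. With the median of the log2 probe values in place of the mean of linear values, CACNA1H stood at -1.69 and was called below the baseline (limma adjusted p = 1.3e-04). With the mean of the log2 probe values it stood at -0.84 and was called below as well (limma adjusted p = 0.025). With the highest probe left out of every target, controls included, it stood at -1.47 (limma adjusted p = 4.3e-04) and CACNA1I at -2.19. That setting was chosen after seeing the data. A level always falls when its highest probe is left out, so these values restate the probe spans and are no separate evidence. Which of the probes reports the transcript was not tested.

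**Figure D2:**
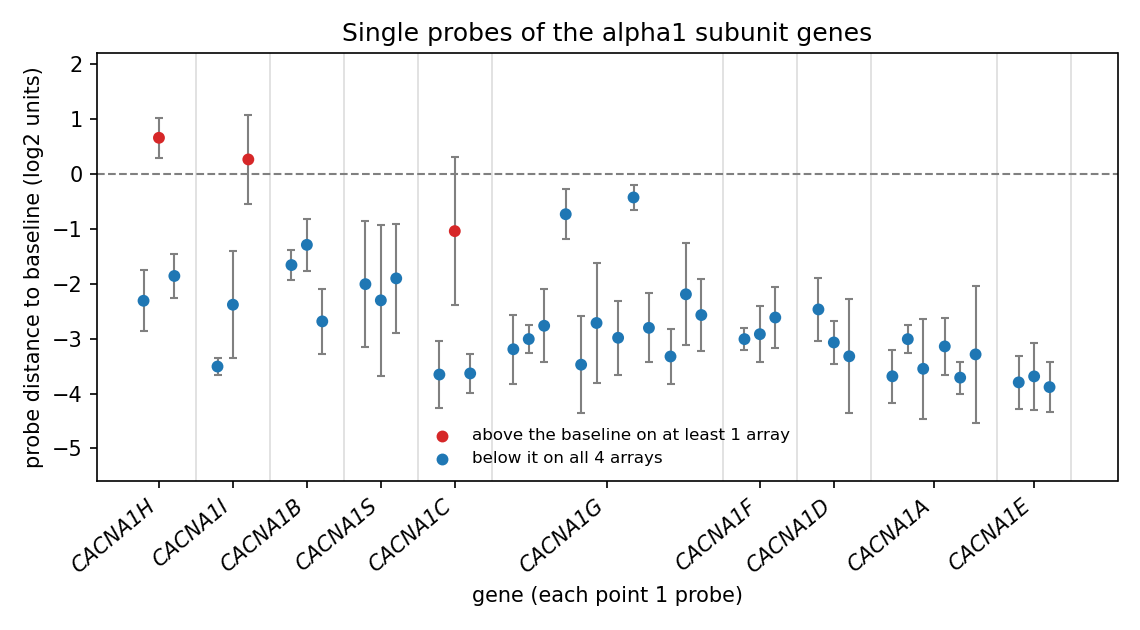
Distance to the baseline for each of the 42 probes of the alpha1 subunit genes, in log2 units, as mean ± SD over the 4 arrays, with the probes of a target side by side. Points in red lay above the baseline on at least 1 array. These were 3 probes, 1 each of CACNA1H, CACNA1I and CACNA1C.

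The remaining T-type gene, CACNA1G, codes for a channel known from thalamus, cerebellum and cardiac pacemaker tissue. Its log2 levels were 7.09, 7.87, 8.31 and 8.39 on replicates 1 to 4, with a mean distance of -2.19 ± 0.23 (SD, n = 4). Its 4 targets stood at -2.92, -1.77, -1.54 and -2.52, all below the baseline by more than the spread between arrays. The targets at -1.77 and -1.54 each held 1 probe above the rest, with means of 9.37 and 9.67 log2 units. Neither probe passed the baseline on any array.

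Among the high-voltage-activated channels, the N-type gene CACNA1B lay highest by mean distance, over CACNA1S by only 0.20 ± 0.81 log2 units (SD, n = 4). On replicate 2, CACNA1S at -0.81 and CACNA1C at -0.98 lay above it. N-type channels trigger transmitter release at many synapses. The log2 levels of CACNA1B were 7.30, 8.21, 9.00 and 8.93 on replicates 1 to 4, lowest on replicate 1, where the baseline was lowest too. Its distances were -2.17, -1.72, -1.69 and -1.39, with a mean of -1.74 ± 0.32 (SD, n = 4). The level thus varied by 0.80 (SD) between arrays and the distance by 0.32.

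The P/Q-type gene CACNA1A and the R-type gene CACNA1E, both known from neurons, were at the bottom. CACNA1A had log2 levels of 6.04 to 7.62 and a mean distance of -3.28 ± 0.39 (SD, n = 4). Its 2 targets differed little, at -3.31 ± 0.31 and -3.25 ± 0.56. CACNA1E had log2 levels of 5.80, 6.06, 6.38 and 7.10 on replicates 1 to 4 and a mean distance of -3.77 ± 0.45 (SD, n = 4). Its 3 probes spanned 0.23 to 0.75 log2 units on single arrays, and 0.378% of all named genes had a lower mean level.

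Among the L-type genes, the levels of CACNA1S and CACNA1C varied more between arrays (SD 0.94 and 0.73) than those of CACNA1D and CACNA1F (SD 0.41 and 0.40), and the median SD of all named genes was 0.42. CACNA1S is the voltage sensor of skeletal muscle, and its log2 levels were 6.94, 9.12, 7.97 and 8.61 on replicates 1 to 4. CACNA1C, the main channel of heart and smooth muscle, had log2 levels of 7.43, 8.96, 7.43 and 8.17. Both genes were higher on replicates 2 and 4 than on replicates 1 and 3, without overlap.

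The mean distances were -1.94 ± 0.87 for CACNA1S and -2.11 ± 0.94 for CACNA1C (SD, n = 4 for each). The 3 probes of CACNA1S spanned 0.44 log2 units on replicate 2 but 2.23 on replicate 3, where the last of them was highest. For CACNA1C the second probe made up 44.7% to 88.4% of the linear signal, at 8.53, 10.37, 7.85 and 9.50 log2 units, and it passed the baseline on replicate 2 only. CACNA1D, known from the sinoatrial node, hair cells and endocrine cells, stood at -2.80 ± 0.35 (SD, n = 4). CACNA1F, the channel of photoreceptor terminals, stood at -2.79 ± 0.19 (SD, n = 4). The log2 levels of both ran from 6.79 to 7.71.

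Levels differed between arrays in a partly shared way. All 10 had a higher mean level on replicates 2 and 4 than on replicates 1 and 3, by 0.08 log2 units for CACNA1D up to 1.41 for CACNA1S. The median of this difference over all named genes was -0.03, so more of them were lower than higher on replicates 2 and 4. Their exact share was not counted, so the count of all 10 has no share to stand beside. This pairing of arrays was chosen after seeing the data. Full separation, both of replicates 2 and 4 above both of replicates 1 and 3, held for 3 of 10 alpha1 genes and for 18.5% of all named genes. The lowest level was on replicate 1 for 8 of 10 genes, as for 27.7% of all named genes and 37.1% of the 364 olfactory receptor genes. Another split was also present. Replicates 3 and 4 both lay above replicates 1 and 2 for CACNA1H, CACNA1B, CACNA1G, CACNA1F, CACNA1A and CACNA1E, but not for the other alpha1 genes. The share of all named genes with that split was not counted. The median olfactory receptor level was 6.44, 6.27, 7.14 and 6.95 on replicates 1 to 4. The baseline was 9.47, 9.94, 10.69 and 10.32, lowest on replicate 1 as well. Both were thus higher on replicates 3 and 4 than on replicates 1 and 2. No label separates these arrays, and no test was made.

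Ordered by mean distance, the genes ran CACNA1H, CACNA1I, CACNA1B, CACNA1S, CACNA1C, CACNA1G, CACNA1F, CACNA1D, CACNA1A and CACNA1E. Of the 9 neighbouring pairs, 4 differed by more than the SD of their difference over the arrays. These were CACNA1H over CACNA1I by 0.41 ± 0.32, CACNA1I over CACNA1B by 0.80 ± 0.74, CACNA1G over CACNA1F by 0.60 ± 0.21, and CACNA1A over CACNA1E by 0.49 ± 0.25 log2 units (SD, n = 4 for each). The second of these did not hold on every array. The other 5 pairs differed by less than that SD, namely CACNA1B and CACNA1S, CACNA1S and CACNA1C, CACNA1C and CACNA1G, CACNA1F and CACNA1D, and CACNA1D and CACNA1A. Each probe binds with its own strength, so the order is one of array signals and not of transcript numbers.

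Olfactory receptor genes give another view of signal without message, as cells outside the nose seldom transcribe them. The mean level of CACNA1H lay above those of 363 of 364 olfactory receptor genes, and that of CACNA1I above 361. CACNA1B, CACNA1S, CACNA1C and CACNA1G lay above 352 to 358 of them, CACNA1F above 325 and CACNA1D above 322. CACNA1A lay above 241 and CACNA1E above 10. The seminal controls themselves fell into 8 genes with mean levels of 6.53 to 7.25 and AFG2A (SPATA5 in the study) and SPATA13 at 9.97 and 9.72. In mean level, 8 alpha1 genes lay above all of the 8 low controls, CACNA1A lay among them and CACNA1E below them.

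The calls thus turned on which control genes set the baseline. Without SPATA5 and SPATA13 it fell to 7.78 log2 units, and 6 of 10 alpha1 genes were detected, CACNA1S, CACNA1C, CACNA1B, CACNA1G, CACNA1H and CACNA1I. The limma test then called CACNA1B, CACNA1H and CACNA1I above the baseline and CACNA1A and CACNA1E below it. With olfactory receptor genes as controls the baseline was 8.02, and CACNA1S, CACNA1B, CACNA1H and CACNA1I were detected, CACNA1H and CACNA1I of them by limma too. With 1 SD in place of 2, at 8.79, CACNA1H and CACNA1I were detected, and limma called CACNA1H. CACNA1D, CACNA1F, CACNA1A and CACNA1E stayed undetected under each of these baselines.

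**Figure D3:**
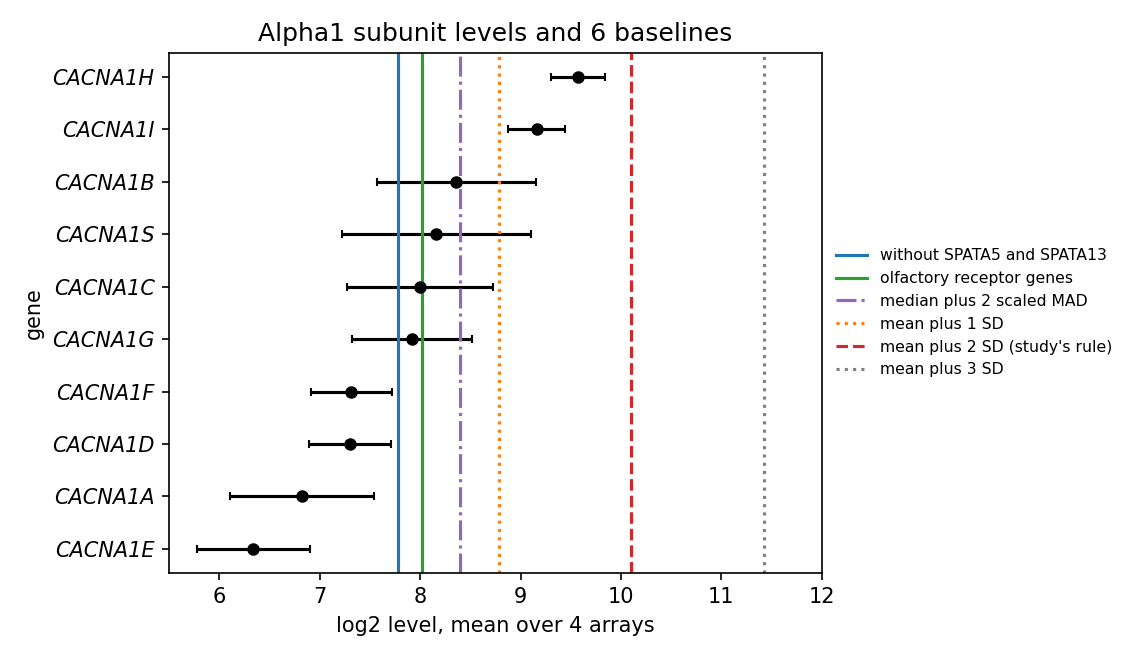
Mean log2 level of each alpha1 subunit gene over the 4 arrays (points, with SD as bars, n = 4), set against 6 baselines (vertical lines, means over the arrays). The baselines run from 7.78 log2 units without SPATA5 and SPATA13 to 11.42 with mean plus 3 SD. At the baseline of 10.10, recomputed by the study's rule, all 10 points lie to its left.

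Subunits that assemble with alpha1 were looked at next, and 15 of 16 were matched. Of these, 2 were detected, against 52.7% of all named genes. Both were alpha2delta genes, which encode extracellular proteins anchored to the membrane. CACNA2D1, a binding site of gabapentin, had distances of 1.46, 2.61, 2.21 and 2.30 on replicates 1 to 4. The mean was 2.15 ± 0.49 log2 units (SD, n = 4, limma adjusted p = 1.8e-09), and it was the single auxiliary gene above the baseline on all 4 arrays. With a baseline of 3 SD its distance was 0.83, with a limma adjusted p of 0.053.

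CACNA2D3 had distances of 1.55, 0.70, -0.39 and -0.10 on replicates 1 to 4, positive on replicates 1 and 2 alone. Its mean of 0.44 ± 0.87 (SD, n = 4, limma adjusted p = 0.218) was within the spread between arrays. CACNA2D2 had distances of 0.49, -1.54, 0.20 and -0.85, and a mean of -0.42 ± 0.94 (SD, n = 4). CACNA2D4 was not matched to a probe.

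The beta subunits bind the alpha1 subunit inside the cell and promote its surface expression. None of the 4 was detected, and they lay close under the baseline, with a median distance of -0.54 log2 units. CACNB2 stood at -0.09 ± 0.82 and was above the baseline on 3 arrays, all but replicate 3. CACNB3 stood at -0.22 ± 0.41 and was above it on replicate 1 (SD, n = 4 for each). Limma called neither of them in either direction. Without replicate 3, CACNB2 came to 0.30, above the baseline (limma adjusted p = 0.409).

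CACNB1 and CACNB4 were called below the baseline, at -0.95 ± 0.38 (limma adjusted p = 0.0090) and -0.86 ± 0.62 (limma adjusted p = 0.018, with SD and n = 4 for each). CACNB4 lost that call without replicate 3, at -0.60 (limma adjusted p = 0.137). The 3 targets of CACNB1 disagreed, at -1.80, 0.52 and -1.56. In the second of them 1 probe averaged 11.88 log2 units and exceeded the baseline on each of the 4 arrays.

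The gamma family, which holds a skeletal muscle channel subunit and several regulators of AMPA-type glutamate receptors, gave 0 of 8 genes detected. All 8 were called below the baseline by limma, with mean distances from -3.50 for CACNG1 to -1.54 for CACNG6. Over all 15 auxiliary genes limma called 1 above and 10 below, and their median distance was -1.54 log2 units. Of all named genes limma called 45.9% above and 41.0% below.

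**Figure D4:**
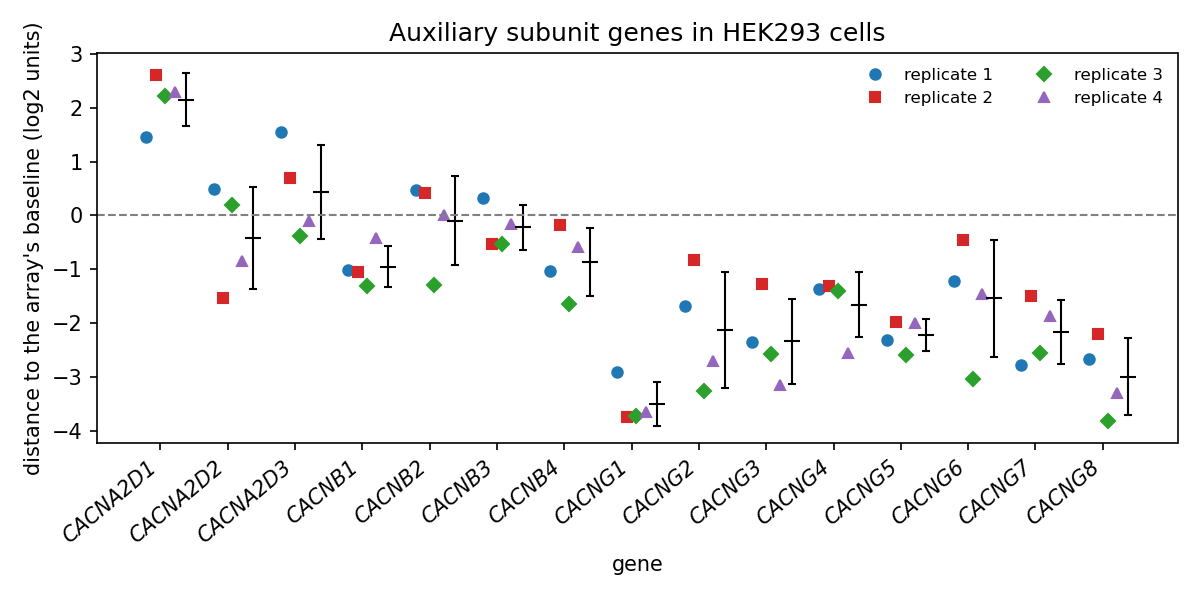
Distance of the 15 matched auxiliary subunit genes to the baseline of each array, in log2 units, with 1 point per array and a bar for the mean ± SD (n = 4). CACNA2D1 is above the dashed baseline on all 4 arrays, the beta subunits CACNB2 and CACNB3 straddle it, and the 8 gamma family genes lie below it.

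Proteins that act on the channels from inside the cell were mixed. Of all named genes 52.7% were detected, and limma called 45.9% above and 41.0% below. CALM2 and CALM3 encode calmodulin, which binds the tail of high-voltage-activated channels and drives their calcium-dependent inactivation, and both were called above the baseline by limma. CALM2 stood at 5.02 ± 0.81 and CALM3 at 5.37 ± 0.68 log2 units (SD, n = 4 for each). The related calcium-binding proteins CABP1, CABP2, CABP4 and CABP5 were all called below it. The RGK GTPases, small G proteins that suppress channel current, gave 0 of 4 detected and 3 called below. GEM, the exception, stood at -0.51 ± 0.98 (SD, n = 4) and was above the baseline on replicate 1.

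STAC adaptors aid the surface expression of L-type channels in muscle and 1 of 3 was detected. STAC itself stood at 0.29 ± 0.56 (SD, n = 4, limma adjusted p = 0.411), within the spread between arrays. Of 11 matched partners at muscle junctions and release sites, 3 were detected and limma called 2 above, RYR1 at 1.68 ± 0.53 and JPH1 at 1.37 ± 1.02 (SD, n = 4 for each). Both calls were lost with a baseline of 3 SD, at 0.37 for RYR1 (limma adjusted p = 0.488) and 0.048 for JPH1. RYR1 is the calcium release channel that CACNA1S gates in skeletal muscle, and JPH1 holds the junction between surface membrane and store together. Over all named genes 52.7% were detected, 45.9% called above by limma and 41.0% below. Calcium-dependent kinases, phosphatase subunits and transcription factors gave 9 of 13 detected, with 8 called above by limma and 4 below. Among them CAMK2G stood at 2.87 ± 0.69, PPP3CB at 2.87 ± 0.48 and CAMK2D at 1.91 ± 0.68 (SD, n = 4 for each), and CAMK2D lost its call with a baseline of 3 SD, at 0.59 (limma adjusted p = 0.191).

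Related channel genes and their partners were set beside the alpha1 genes. Over all named genes, 52.7% were detected, 45.9% called above by limma and 41.0% below. Of the 10 voltage-gated sodium channel alpha subunits, 1 was detected, and limma called it above and 8 below. It was SCN9A, a channel of peripheral neurons, at 1.18 ± 0.52 log2 units (SD, n = 4, limma adjusted p = 9.2e-04). The median distance of the sodium channel genes was -3.19, lower than the -2.15 of the calcium channel genes. The difference between the families was not tested. Of the NALCN sodium leak channel complex 0 of 4 matched genes were detected. Of 5 matched CatSper and two-pore channel genes 2 were detected, TPCN2 at 1.46 ± 0.25 and TPCN1 at 0.15 ± 0.73 (SD, n = 4 for each), and limma called only TPCN2 above. TPCN2 lost that call with the median of log2 probe values, at 0.37 (limma adjusted p = 0.244), and with a baseline of 3 SD, at 0.14 (limma adjusted p = 0.950).

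Marker genes of the tissues that rely on alpha1 subunits were read on the same scale. The shares over all named genes were 52.7% detected, 45.9% called above by limma and 41.0% below. Of the skeletal muscle, cardiac muscle and photoreceptor markers 0 of 5 were detected in each list, and limma called all 5 below. Endocrine markers gave 0 of 5 detected and 4 called below. Neuron markers gave 3 of 4 detected and 2 called above, NEFL at 4.01 ± 0.56 and SYP at 3.09 ± 0.89 (SD, n = 4 for each). The third detected marker, NEFM, had log2 levels of 13.57, 8.32, 13.09 and 8.08 on replicates 1 to 4, above the baseline on replicates 1 and 3 alone. Its mean distance of 0.66 ± 3.08 (SD, n = 4) became -0.49 without replicate 1. The limma adjusted p of 0.064 for NEFM came from the common standard error of 0.351 and does not measure this spread. SNAP25 was called below the baseline, at -1.40 (limma adjusted p = 9.2e-05). The summed linear signal of the neuron markers was 14.34 to 15.52 log2 units over the 4 arrays, and any relation to the alpha1 levels was not tested. Kidney tubule markers gave 1 of 6, LRP2, at 1.27 ± 0.68 (SD, n = 4), and kidney lineage transcription factors 1 of 5. All 10 reference genes were called above the baseline, at 3.10 to 5.55 log2 units.

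The label step copied double-stranded cDNA from random primers, so signal from either strand of a gene could not be told apart. The reference table lists 6 antisense RNAs named after alpha1 genes, 2 for CACNA1B, 3 for CACNA1C and 1 for CACNA1G, and 3 intronic ones for CACNA1C. None of them was matched to a probe of its own.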

How the data were processed

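RNA of 4 cultures was copied from oligo(dT), labelled with Cy3 and hybridised in 1 colour to NimbleGen 60-mer arrays designed on HG18. The authors deposited 1 log2 intensity per probe and array, 71998 probes in all. Per the study's methods, images were read with GenePix and NimbleScan. The submitters' processing notes name RMA without saying what it was used for. Whether background was corrected is not given in the sources used here, and raw intensities were not used here, so precision rests on the number of arrays.

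Probes of a target were averaged on the linear scale and returned to log2, and the targets of a gene were then averaged. Accessions were named, without versions, through a RefSeq table of GRCh38.p14, and no coordinates are printed because the array's build differs. The baseline on each array was the mean plus 2 SD of 10 matched seminal genes of 11 listed. Distances to it were tested with limma 3.58 in R 4.3, one-sided in each direction, with Benjamini-Hochberg adjustment at 0.05 over 17217 genes. The baseline was taken as known, and an error in it shifts every gene of that array by the same amount. For a single gene, the smallest exact one-sided p from flipping the signs of 4 distances is 0.0625. The fit was tested on simulated data.

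The members and lists were chosen with earlier results of these data known. Every member and any gene of the lists could be named. The alternatives were other controls, baselines, probe summaries, scalings and array subsets. Probe sequences and their places in the transcripts were not used here. The methods describe a separate plate and extraction for each array. Some results of the lists are not reported here.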

Additional observations from a re-analysis of the deposited data

Results flagged for a closer look

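For 45 genes, the levels and the distances on the 4 arrays were searched for a single array far from the rest, by Dixon's ratio of the gap to the whole range. The ratio passed its critical value in 5 of 90 searches, and chance alone passes it in about 1 of 20. Among the alpha1 genes, CACNA1A was closest to the baseline on replicate 4, at -2.71 log2 units, when the remaining arrays gave -3.51 to -3.43 (ratio 0.907). CACNA1F was farthest from it on replicate 3, at -3.07, when the remaining arrays gave -2.74 to -2.68 (ratio 0.844). In the gamma family, CACNG1 had a distance of -2.90 on replicate 1 (ratio 0.895) and CACNG4 one of -2.55 on replicate 4 (ratio 0.925). The log2 level of the leak channel gene NALCN was 7.21 on replicate 3, below a range of 8.98 to 9.26 elsewhere (ratio 0.864).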

How the results depend on the processing

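The limits were the number of arrays, the unknown affinity of each probe and the choice of control genes. No paired analysis was possible because there was 1 group. Over the 10 alpha1 genes, 160 recomputed distances kept their direction and call, 12 lost the call, 4 gained one and 14 changed sign, 10 of them in genes that had been called and 4 in CACNA1H. Without SPATA5 and SPATA13, 6 alpha1 and 12 auxiliary genes were detected, the alpha1 median was 0.18, and limma called 3 alpha1 genes above and 2 below. Among named genes called below, the distances that turned positive were 0.38 for CACNA1S, 0.22 for CACNA1C, 0.58 for CACNA1B, 0.14 for CACNA1G, 1.38 for CACNA1I, 1.38 for CACNB1, 1.47 for CACNB4, 0.21 for CACNG2, 0.67 for CACNG4, 0.11 for CACNG5, 0.79 for CACNG6, 0.16 for CACNG7, 0.88 for NALCN and 0.92 for SNAP25. Of those not called, CACNA1H rose to 1.79, CACNA2D2 to 1.90, CACNB2 to 2.23, CACNB3 to 2.10, SCN8A to 2.06, STAC2 to 1.86 and GEM to 1.82. With olfactory receptor controls the counts were 4 and 9, the median -0.064, and limma called 2 above and 4 below. Then CACNA1S was at 0.14, CACNA1B at 0.34, CACNA1I at 1.14, CACNB1 at 1.14, CACNB4 at 1.22, CACNG4 at 0.43, CACNG6 at 0.55, NALCN at 0.64, SNAP25 at 0.68 and CACNA1H at 1.55. With 1 SD the counts were 2 and 7, the median -0.83, and limma called 1 above, with CACNA1I at 0.37, CACNB1 at 0.37, CACNB4 at 0.46 and CACNA1H at 0.78. With the median plus 2 scaled MAD the counts were 2 and 9, the median -0.44, and limma called 2 above and 4 below, with CACNA1I at 0.76, CACNB1 at 0.76, CACNB4 at 0.84, CACNG4 at 0.052, CACNG6 at 0.17, NALCN at 0.26, SNAP25 at 0.30 and CACNA1H at 1.17. With 3 SD 1 auxiliary gene was detected, the alpha1 median was -3.47, SCN9A was at -0.13 and LRP2 at -0.051. The higher or lower baseline itself makes these shifts. The highest target of each gene put CACNB1 at 0.48. The alpha1 median was -2.68 with the median of log2 probe values and -2.64 on replicates 1 and 3 alone, a subset chosen after seeing the data, as were replicates 2 and 4 alone, the highest probe, and leaving out the highest probe. Replicates 3 and 4 alone, and the demand for all 4 arrays, each left 1 auxiliary gene detected, and the cause was not tested. Leaving out 1 array in turn gave 0 alpha1 genes detected each time, 2 to 3 auxiliary genes, an alpha1 median of -2.40 to -1.94 and 8 to 9 alpha1 genes called below.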
